A study of Rattus norvegicus with 12 samples.

Results

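In the nucleus accumbens shell (NAcsh) of 12 rats, 14 of 17520 transcripts were fully separated by the length of forced abstinence, which means that no rat at 21 days overlapped with any rat at 1 day. Of these 14 transcripts, 4 were higher at 21 days and 10 were lower. The separations were narrow, since the nearest rats on either side of the gap differed by 1.01-fold to 1.22-fold, after 0.5 CPM (counts scaled to the library size, defined below) was added to each level. The transcripts were chosen by these same levels, so their levels and their differences between 1 and 21 days are given as a description without a test.

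The deposited files listed 41064 Ensembl transcripts, and 18363 of them had 100 or more counts summed over the 12 rats. Transcripts with 0 counts in all 3 rats of any group were left out, which left 17520 that could meet the rule. Counts were scaled to CPM, the usual unit of counts relative to library size, with each rat's total taken without the 8 transcripts that had the most counts over all rats, and every level below is on that scale. A transcript was taken when the lowest of 6 rats at one abstinence length was above the highest of 6 rats at the other. The share that met the rule was 0.0799% of the 17520 transcripts, made up of 0.0228% that were higher and 0.0571% that were lower at 21 days. How many would meet it without any difference between the abstinence lengths was not worked out, so nothing is read from these shares.

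All rats were adult male Sprague-Dawley rats that had learned to press a lever for cocaine, and all were tested for cue reactivity without drug for 1 h immediately before the brain was taken. They had spent forced abstinence either in isolation (IC), the housing they came from, or in an enriched environment (EE) with cage mates, a running wheel and toys, for 1 or 21 days. This gave the groups IC1D, EE1D, IC21D and EE21D, with 3 rats each, and RNA was sequenced from 1 NAcsh sample per rat. Every group had taken cocaine and every group was tested with the cues, and no drug-naive or untested group was analysed here. In the test the cues followed lever presses, so lever pressing and cue exposure just before tissue collection can differ between the abstinence lengths. These, the time since the last cocaine session, age and time spent in the housing cannot be told apart. No age is given in the labels.

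The NAcsh is the part of the ventral striatum in which dopamine from the midbrain and glutamate from cortex, hippocampus and amygdala meet on GABAergic medium spiny neurons. In rats trained to take cocaine, seeking in response to drug cues grows over weeks of abstinence, a change called incubation, and remodelling of glutamate receptors on these neurons is among its best known correlates. A gene can give rise to several transcripts by alternative promoters and splicing, and a program that assigns short reads to transcripts has to divide the reads that isoforms share.

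The files do not pair transcript identifiers with gene names, and 0 of the 14 identifiers were found in the rat gene table used here. The 14 are therefore described as lower transcripts 1 to 10 and higher transcripts 1 to 4, ordered from the widest gap to the narrowest, and an identifier is given for the leading pair in each direction. Marker genes of medium spiny neurons, glia or vessels could not be looked up for the same reason, so the labelled tissue was not checked against them. In a bulk sample, fewer cells that express a transcript and less of it per cell cannot be told apart. The transcripts of Camk2d and Eif4e2 that the study ties to a gene name were not among the 14. Both had 0 counts in all 3 IC21D rats, and neither separated the abstinence lengths.

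The libraries held 11725831 to 26975339 counts, of which the 8 largest transcripts took 52.1% to 75.6%, and 4714969 to 11364580 counts remained on all others. One library stood apart, that of IC21D rat A24, which had the fewest remaining counts and in which 13936 transcripts had a count, whereas each of the other libraries had counts for 19571 to 23306. Of the 17520 transcripts, 4777 were at 0 counts in A24 and 308 to 1318 in each other rat. The remaining counts did not differ between 21 and 1 days beyond the spread between rats (exact permutation test, two-sided, 6 rats against 6, p = 0.483), nor did the share of the 8 largest transcripts (p = 0.987, exact permutation test) or the number of transcripts detected (p = 0.898, exact permutation test). Of 66 pairs of libraries, 0 were identical. The labels name each library as a separate animal but say nothing of cages or litters.

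The transcript with the highest level among the 14 was higher transcript 1, ENSRNOT00000008737, which also had the widest gap of those higher at 21 days. At 1 day its level was 77.0, 117 and 100.1 CPM in IC1D and 108, 37.5 and 72.6 CPM in EE1D. At 21 days it was 129, 176 and 140.0 CPM in IC21D and 141, 129.5 and 144 CPM in EE21D. All 6 rats at 21 days lay above the highest rat at 1 day, IC1D rat A20, and the 3 EE21D rats were close together. The mean was 85.5 ± 29.3 CPM at 1 day and 143 ± 17.5 CPM at 21 days (SD, n = 6), a ratio of 1.68.

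The lowest level of higher transcript 1 was that of EE1D rat A16, with 37.5 CPM. At the other end, the 176 CPM of A24 was the highest of the 12 rats, and without that rat the ratio of the means was 1.60. Its counts were between 236 and 1607 per rat, the largest of the set, and 34 of the 36 pairs of a 21-day with a 1-day rat had exact Poisson 95% intervals that did not overlap. These intervals hold for counting error alone, as amplification makes several reads of 1 molecule possible.

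Higher transcript 3 stood out by how even it was at 21 days. Its level ranged from 12.5 to 14.5 CPM there, with a median of 13.04, and from 6.24 to 12.1 CPM at 1 day, with a median of 7.09. The SD at 21 days was 0.795 CPM, below the 1.29 CPM that counting alone would give for these libraries. At 1 day the SD was 2.47 CPM against a counting SD of 1.096 CPM, and there EE1D rats A12 and A16 lay at 12.1 and 10.97 CPM, well above the 3 IC1D rats. The separation of this transcript was therefore wide among isolated rats and narrow among enriched rats.

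The remaining transcripts that were higher at 21 days were at low levels. Higher transcript 4 ranged from 3.11 to 5.47 CPM at 1 day (median 3.47) and from 5.63 to 9.97 CPM at 21 days (median 6.77), with A24 highest again. Its means, 3.84 ± 0.871 and 7.18 ± 1.61 CPM (SD, n = 6), gave a ratio of 1.87, the largest of the 4. Its gap was one of the narrowest, since EE21D rat A13 at 5.63 CPM was next to IC1D rat A2 at 5.47 CPM.

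Higher transcript 2, ENSRNOT00000076629, had only 5 to 20 counts per rat. It was at 1.12, 1.09 and 1.149 CPM in IC1D and at 0.942, 0.954 and 0.718 CPM in EE1D. At 21 days it was at 1.36, 2.55 and 1.70 CPM in IC21D and at 1.23, 1.52 and 2.06 CPM in EE21D. The groups did not overlap, but 0 of the 36 pairs of a 21-day with a 1-day rat had Poisson intervals that lay apart. This transcript was thus the least well resolved of the 14 by its counts.

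**Figure D1:**
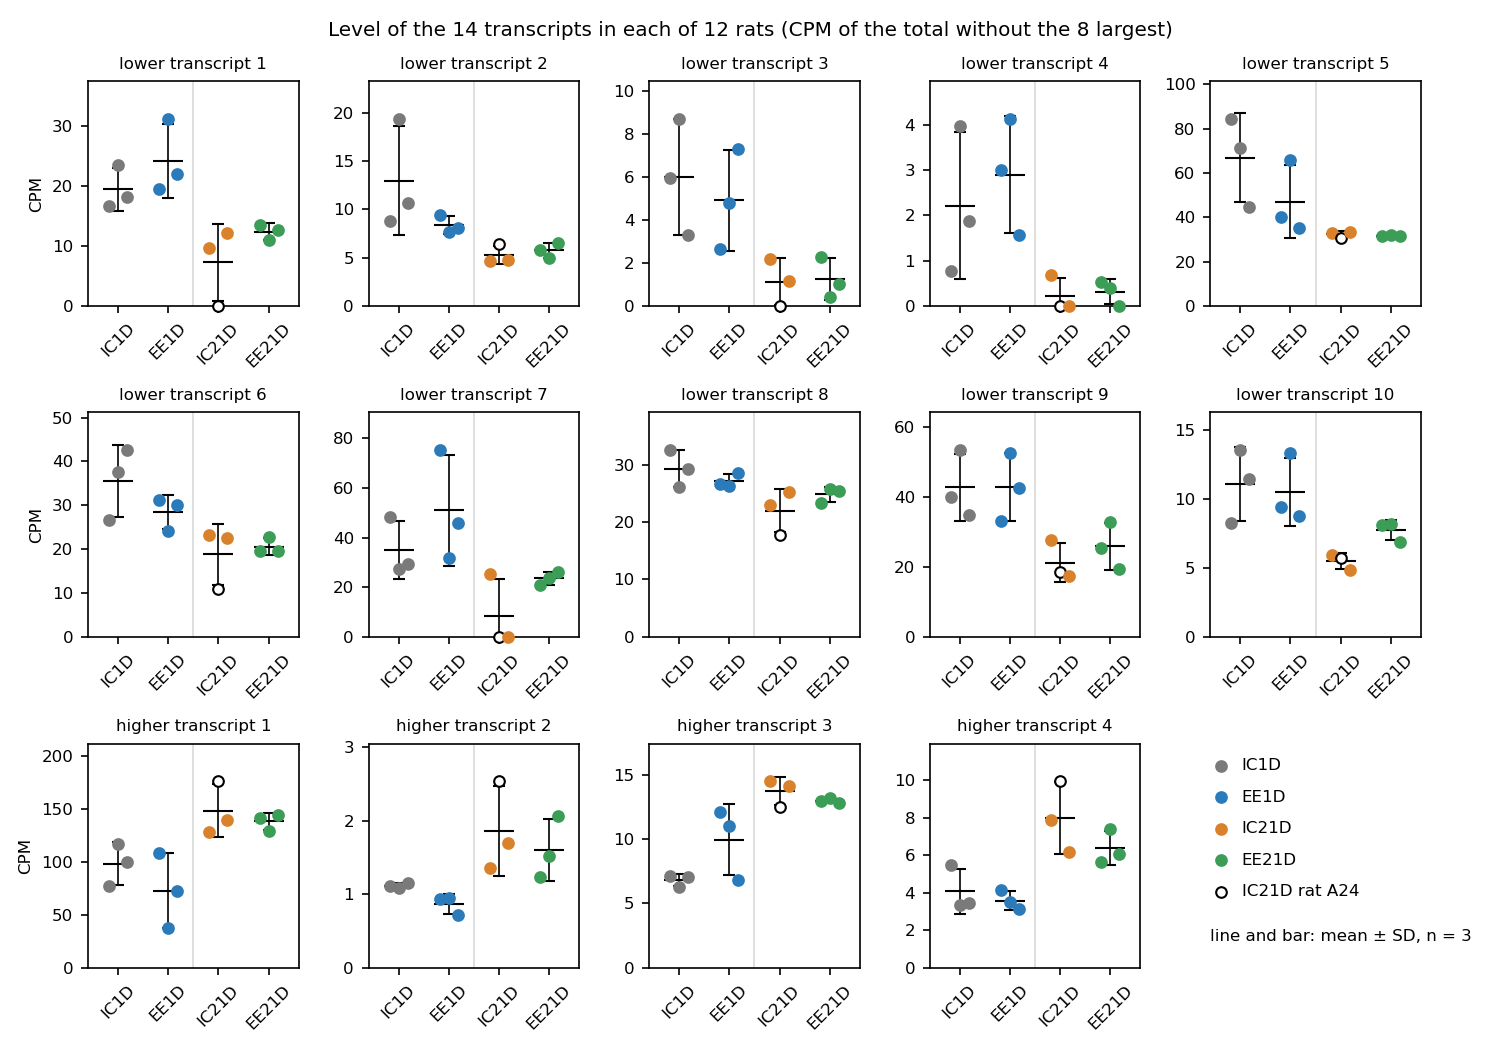
Level of each of the 14 transcripts (vertical axes, CPM of the total without the 8 largest transcripts) in the 12 rats by group, with points for rats, an open circle for IC21D rat A24, and the mean ± SD of 3 rats as a line and bar. In every panel the 6 points right of the grey line lie all below or all above the 6 points left of it, and A24 is often the point farthest out, as in lower transcripts 1, 6 and 8 and higher transcripts 1 and 4.

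Among the 10 transcripts that were lower at 21 days, lower transcript 1, ENSRNOT00000073956, had the widest gap of all 14. It was at 16.6, 23.5 and 18.1 CPM in IC1D and at 19.4, 31.2 and 22.0 CPM in EE1D. At 21 days it was at 9.63, 0 and 12.2 CPM in IC21D and at 13.6, 10.9 and 12.7 CPM in EE21D. The 5 rats of the 21-day groups other than A24 lay close together, and the rat at 0 was A24, where 0 counts allow a level of up to 0.636 CPM by a floor of 3 counts. The mean was 21.8 ± 5.23 CPM at 1 day and 9.83 ± 5.01 CPM at 21 days (SD, n = 6), 2.22 times lower, and without A24 it was 1.85 times lower.

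Lower transcript 2, ENSRNOT00000010303, had counts in all 12 rats. Its level in IC1D was 8.82, 19.4 and 10.6 CPM and in EE1D 9.42, 7.63 and 8.02 CPM, while IC21D had 4.61, 6.36 and 4.78 CPM and EE21D had 5.81, 4.96 and 6.50 CPM. The 21-day rats were within a narrow band, and their SD of 0.830 CPM was about that expected from counting (0.833 CPM). The mean was 10.6 ± 4.40 CPM at 1 day, raised by IC1D rat A20, and 5.50 ± 0.830 CPM at 21 days (SD, n = 6), 1.93 times lower. Here A24 was not the lowest rat, and without it the ratio was 2.00.

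Besides lower transcript 2, the lower transcripts with counts in all 12 rats were numbers 5, 6, 8, 9 and 10, and they differed by 1.21 to 1.82 times between the means of 1 and 21 days. Lower transcript 5 had the most uniform level at 21 days of the 14. All 6 rats lay between 30.8 and 33.2 CPM, with a median of 31.6 and an SD of 0.954 CPM, where counting alone would give 1.99 CPM. At 1 day the same transcript ranged from 35.3 to 84.4 CPM, with a median of 55.3 and an SD of 19.7 CPM. Every 1-day rat was above the narrow 21-day band, but EE1D rat A27 only just, and the difference in spread was as marked as the difference in level.

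Lower transcripts 6 and 9 were at similar levels. The former ranged from 24.2 to 42.6 CPM at 1 day (median 30.7) and from 10.8 to 23.2 CPM at 21 days (median 21.0), with A24 at the bottom. Without A24 its 1-day mean was 1.49 times its 21-day mean, against 1.62 times with all rats. The latter ranged from 33.2 to 53.5 CPM at 1 day (median 41.4) and from 17.5 to 32.9 CPM at 21 days (median 22.4). Its gap was among the narrowest because EE21D rat A14, at 32.9 CPM, stood above the other 21-day rats and just under EE1D rat A12.

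Lower transcript 8 differed least between the abstinence lengths. It ranged from 26.1 to 32.6 CPM at 1 day (median 27.6) and from 17.8 to 25.8 CPM at 21 days (median 24.2), with means of 28.2 ± 2.51 and 23.4 ± 2.98 CPM (SD, n = 6). Its SD at 1 day was 1.29 times the counting SD, so these rats were nearly as alike as the counts allow. Lower transcript 10 was less abundant, at 8.26 to 13.6 CPM at 1 day (median 10.5) and 4.88 to 8.20 CPM at 21 days (median 6.44).

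The other lower transcripts, numbers 1, 3, 4 and 7, were those with a rat at 0 counts, and in each of them A24 was such a rat. Lower transcript 7 had 0 counts in A24 and in IC21D rat A3, while the third IC21D rat, A9, was at 25.5 CPM and the EE21D rats were at 20.8, 23.6 and 26.3 CPM. At 1 day it ranged from 27.4 to 75.3 CPM with a median of 38.7. The mean was 43.0 ± 18.1 CPM at 1 day and 16.02 ± 12.6 CPM at 21 days (SD, n = 6). The 4 rats at 21 days with counts thus lay just under the lowest 1-day rat, and the SD at 21 days was set by the pair at 0.

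Lower transcripts 3 and 4 had the largest ratios and few counts. Lower transcript 3 ranged from 2.64 to 8.68 CPM at 1 day (median 5.34) and from 0 to 2.29 CPM at 21 days (median 1.10), and its 1-day mean was 4.62 times its 21-day mean. Lower transcript 4 ranged from 0.781 to 4.13 CPM at 1 day (median 2.44) and from 0 to 0.678 CPM at 21 days (median 0.202), a ratio of 9.52. In the latter, 3 of the 6 rats at 21 days were at 0 counts and the others had 4 to 6 counts, against 7 to 44 counts in the 1-day rats. Without A24 the ratios were 3.85 and 7.93.

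Rat A24 was the lowest of the 12 rats, alone or tied at 0 counts, in 7 of the 10 lower transcripts and the highest in 3 of the 4 higher ones. IC1D rat A20 was the highest of 12 in 4 of the 10 lower transcripts. Apart from the 0 counts of A1 in lower transcript 4, no EE21D rat was at the outer end of any of the 14. The part of the depth of A24 in these positions was not tested. That all 14 transcripts keep their order in the other 11 rats follows from the rule, so nothing is read from it. The ratios of the means without A24 were between 1.15 and 7.93.

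At the gaps themselves the counting intervals met. For each of the 14 transcripts the exact Poisson 95% intervals of the 2 nearest rats overlapped, including lower transcript 1, where IC1D rat A2 had 149 counts (16.6 CPM, interval 14.1 to 19.5) and EE21D rat A13 had 154 counts (13.6 CPM, interval 11.5 to 15.9). In higher transcript 1 the intervals were 120.5 to 137 CPM for IC21D rat A9 and 111 to 124 CPM for IC1D rat A20. Overlap of a pair of such intervals does not show that the pair differed by no more than counting error. The rats that bounded the gaps were spread over the groups, with A2 and A13 each doing so in 4 transcripts. Away from the boundary the rats were better resolved, and between 0 and 34 of the 36 cross pairs had intervals that did not overlap, with 24 or more in 9 of the 14 transcripts.

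**Figure D2:**
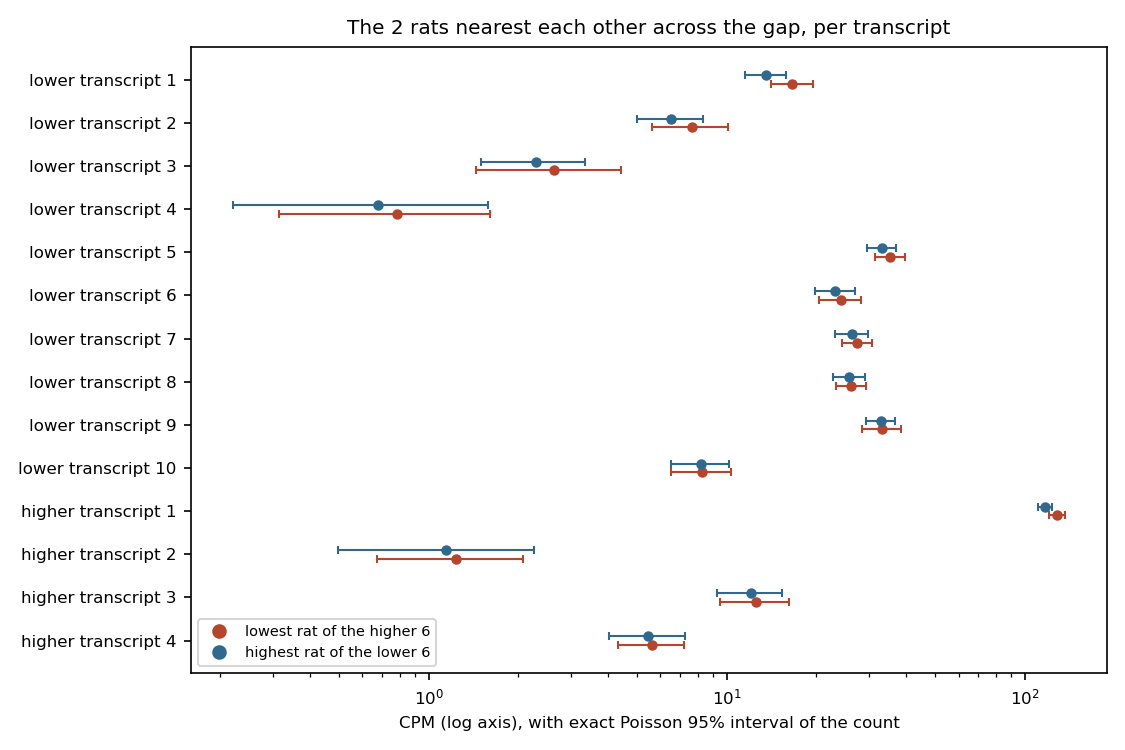
For each transcript, the lowest rat of the 6 higher ones (red) and the highest rat of the 6 lower ones (blue), in CPM on a log axis with the exact Poisson 95% interval of the count. The intervals overlap in all 14 rows, and they are widest for lower transcript 4 and higher transcript 2, which had the fewest counts.

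The 3 narrowest gaps in each direction, just inside the rule, were those of lower transcripts 10, 9 and 8 and higher transcripts 4, 3 and 2, with gaps of 0.01, 0.01, 0.02, 0.04, 0.05 and 0.07 on the log2 scale. Just outside it were 3 transcripts that leaned higher at 21 days and overlapped by 0.01, 0.02 and 0.03 on the same scale. The first of these ranged from 0.565 to 1.149 CPM at 1 day and from 1.13 to 1.76 CPM at 21 days, the second from 18.4 to 25.6 and from 25.3 to 43.3 CPM, and the third from 0.636 to 3.20 and from 3.14 to 4.54 CPM. Of the 14, the least abundant had 134 counts over the 12 rats. Among the 3596 transcripts with at least 10 but fewer than 100 counts, a further 2 were fully separated.

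The 14 transcripts were neither the most abundant nor the most changed. Their mean level ranged from 1.36 to 114 CPM with a median of 13.3 CPM, against a median of 15.9 CPM over the 17520. Their median absolute difference between abstinence lengths was 0.82 on the scale of log2(CPM + 0.5), against 0.23 over all, but 2034 transcripts (11.6%), with 7 of the 14 among them, differed by more than that median, and 58 differed by more than lower transcript 7, the largest of the 14 at -2.61. The within-group SD had a median of 0.34 on the log2 scale among the 14 and 0.64 over all. A small spread and a large difference are what the rule asks for, so these figures describe the selection.

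The same rule applied to one housing condition at a time, with 3 rats against 3, was met far more often because fewer rats have to be cleared. In isolated rats 580 transcripts were fully higher and 1116 fully lower at 21 days (3.31% and 6.37% of 17520), and in enriched rats 749 were higher and 671 lower (4.28% and 3.83%). In both housing conditions 14 were higher (0.0799% of 17520) and 21 were lower (0.120%). Of these, 4 and 10 met the full rule, in which every 21-day rat also clears the 1-day rats of the other housing condition. How many would meet these rules without any difference between the abstinence lengths was not worked out, so nothing is read from these numbers.

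The rule fixed the sign of the difference in each housing condition and limited how far the conditions could differ, but it did not set the sizes. In 11 of the 14 transcripts the mean log2 difference was larger in size in IC than in EE, as it was in 64.0% of the 17520. Without A24, an alternative chosen after the data were seen, it was larger in IC in 8 of the 14 and in 59.8% of the 17520. For lower transcript 7 it was -4.21 in IC and -1.01 in EE, and for lower transcript 2 it was -1.16 and -0.50. Without A24 the IC values of these were -3.26 and -1.29. For lower transcript 1 it was -2.30 in IC and -0.91 in EE with all rats, but -0.80 in IC without A24, so the order turned. Without A24 the order also turned for lower transcript 3 (-1.53 in IC and -1.69 in EE) and higher transcript 4 (0.73 and 0.75). With all rats the difference was larger in EE for lower transcript 4 (-1.84 in IC and -2.06 in EE), higher transcript 1 (0.60 and 1.05) and higher transcript 2 (0.52 and 0.60).

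**Figure D3:**
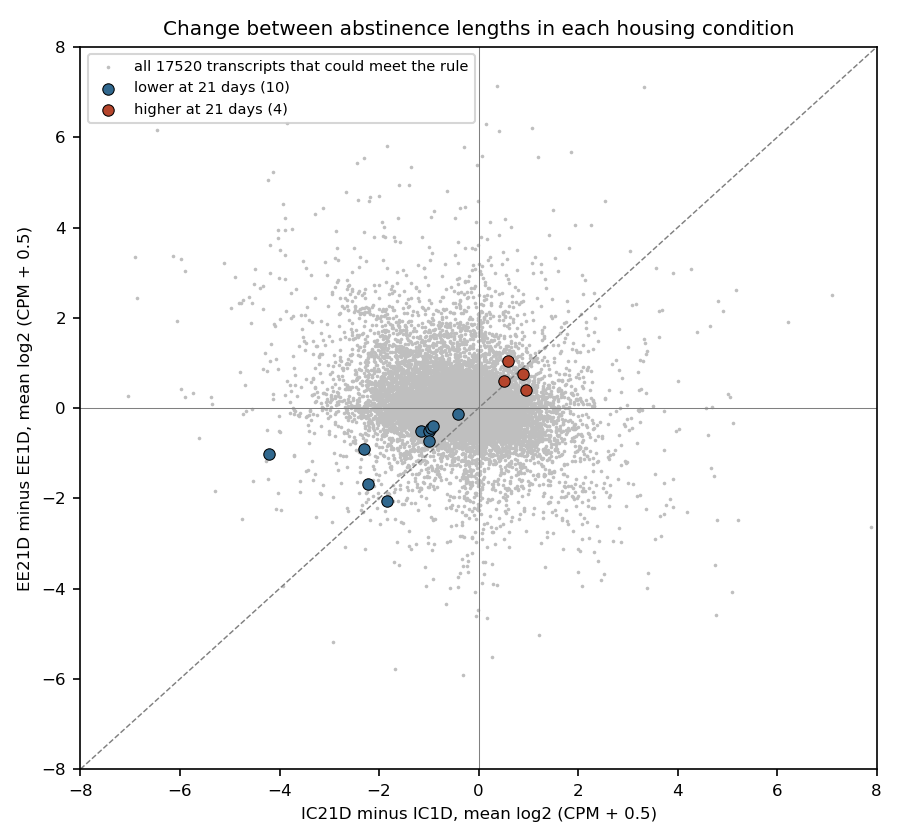
Difference between 21 and 1 days in isolated rats (horizontal axis) and in enriched rats (vertical axis), each as the difference of mean log2(CPM + 0.5) over 3 against 3 rats, for all 17520 transcripts (grey) and for the 14 (colored), with the line of equal change dashed. The 10 lower transcripts lie in the lower left quadrant, 9 of them left of the dashed line, and the 4 higher ones in the upper right, while most of the grey points surround the origin.

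Whether the difference between abstinence lengths depended on housing was tested as the interaction in edgeR's quasi-likelihood test over 28622 transcripts. The rule did not compare housing conditions, but it used the levels of the same 12 rats and so fixed the sign of the difference in both conditions and limited how far they could differ. The housing and interaction estimates of the 14 are therefore given as values, and nothing is read from the number called among them. None of the 14 transcripts had an adjusted p-value under 0.05, and the smallest adjusted p-value among them was 0.980 for lower transcript 2, with a log2 interaction of 0.80 (standard error 0.617). Over all transcripts 0 (0%) passed, while before adjustment 1474 (5.15%) passed the same threshold, with 0 of the 14 among them. DESeq2's Wald test called 201 (0.723%) over all and 0 of the 14. The interaction was positive in 12 of the 14 and in 16486 of the 28622. A positive value means a smaller fall in EE for a lower transcript but a larger rise in EE for a higher one. It was positive in all 10 lower transcripts and in higher transcripts 1 and 2, and negative in higher transcripts 3 and 4. For lower transcript 4 it was 0.12 (standard error 1.76), although its mean log2(CPM + 0.5) fell more in EE. The median interaction, over both directions, was 0.43 among the 14, against 0.20 over all transcripts and 0.14 over the 17520 that could meet the rule. With upper-quartile scaling it was positive in 10 of 14, with medians of 0.24 among the 14 and 0.03 over all. Without A24 it was also positive in 10 of 14, with medians of 0.26 and 0.12.

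The largest of these estimates belonged to lower transcript 7, at 1.06 with a standard error of 2.04 (edgeR, adjusted p = 1.00), and it rested on which IC21D rats had counts. Without IC21D rat A9 this transcript had 0 counts in both remaining IC21D rats, the edgeR adjusted p-value became 0.00616, and it was then the one transcript of the 14 to pass. The fitted size of that interaction, 10.1 on the log2 scale, depends on how the program treats 0 and is no measure of the difference. For lower transcript 8, the most precisely estimated, the interaction was 0.33 with a standard error of 0.348. The next smallest unadjusted p-values after lower transcript 2 were those of higher transcript 3, with an interaction of -0.58 (standard error 0.494), and lower transcript 5, with 0.51 (standard error 0.438), and both had an edgeR adjusted p-value of 1.00.

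The effect of housing, EE over IC with abstinence length in the model, was tested in the same way. Neither edgeR (0 transcripts, 0%) nor DESeq2 (15 transcripts, 0.0548%) called any of the 14 at an adjusted p-value under 0.05. Before adjustment the same threshold was passed by 714 transcripts (2.49%) over all, by 212 (1.21%) of the 17520 that could meet the rule, and by 0 of the 14. The smallest unadjusted p-value of the 14 was 0.189, for lower transcript 5, which was lower in EE by a log2 fold change of -0.31 (standard error 0.223, edgeR, adjusted p = 1). In that transcript the 1-day means were 66.8 ± 20.2 CPM in IC1D and 47.1 ± 16.4 CPM in EE1D (SD, n = 3), while the 21-day means were 32.3 ± 1.36 and 31.6 ± 0.167 CPM.

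Housing estimates took both signs, 6 positive and 8 negative. Higher transcripts 1, 2 and 4 were lower in EE, by log2 fold changes of -0.32, -0.33 and -0.30 (standard errors 0.229, 0.458 and 0.314), and higher transcript 3 was at 0.19 (standard error 0.251). The largest estimate was again that of lower transcript 7, 0.99 with a standard error of 1.01. A set that separates fully by abstinence length cannot also separate fully by housing, so the 23 transcripts that separated by housing under the same rule (17 higher and 6 lower in EE) are none of these 14. These p-values do not show that the transcripts were alike between housing conditions, since an interval of 2 standard errors on either side of the estimate reached 0.5 or more on the log2 scale, in one direction, in all but lower transcript 8.

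**Figure D4:**
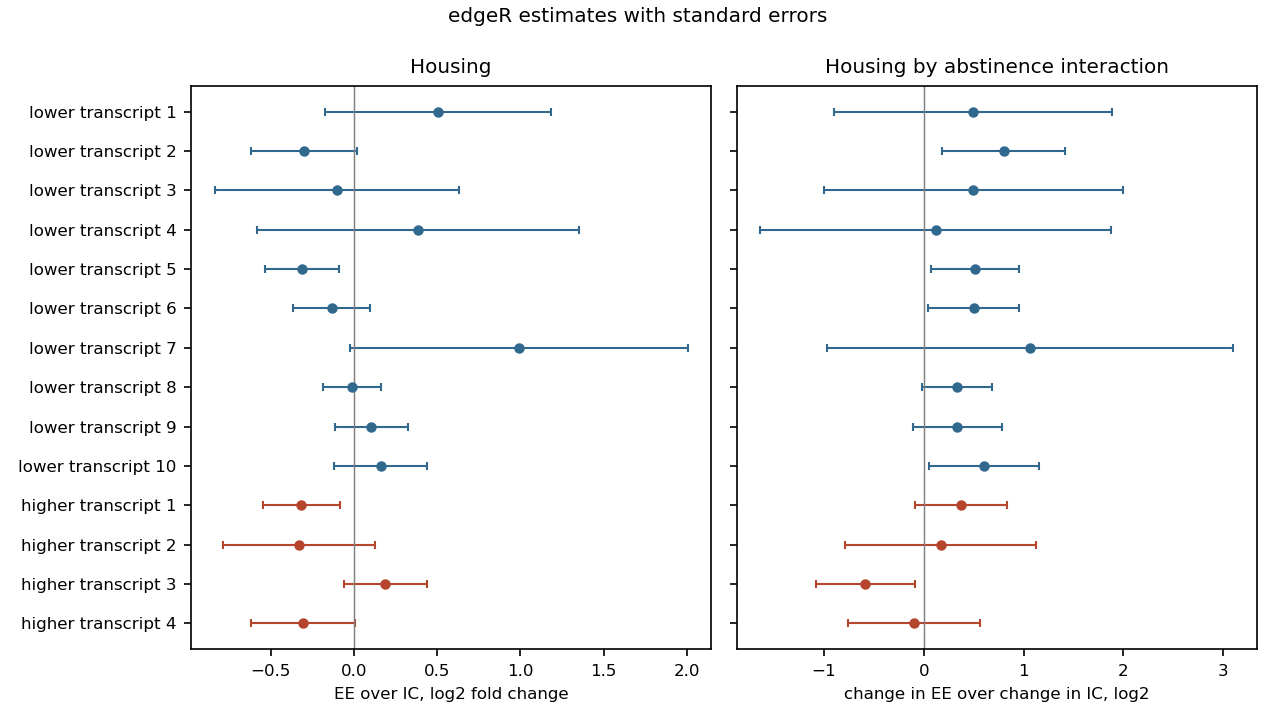
edgeR estimates for the 14 transcripts with standard errors as bars, for EE over IC (left, log2 fold change) and for the housing by abstinence interaction (right, log2), in blue for transcripts lower at 21 days and in red for those higher. The bars reach 0 for most transcripts in both panels, and the widest belong to lower transcripts 4 and 7, which had rats at 0 counts.

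Over all pairs of the 14, the variation from rat to rat within groups was no more shared than over all transcripts. Among the 10 lower ones the median was higher. After the mean of each group was subtracted, the median Pearson correlation over their 91 pairs was 0.05, about as over all pairs of the 17520 transcripts (0.06). Those 91 include pairs of a lower with a higher transcript. Among the 10 lower ones alone it was 0.24 over 45 pairs, and among the 4 higher ones 0.09 over 6 pairs. These correlations are across 12 rats that share library depth and scaling, and they are given without a test. The rule lets a rat lie far out only on the side away from the gap, so nothing is read from the medians within a direction. On the scale of log2(CPM + 0.5), the SD was larger at 1 day in 4 of the 10 lower and in 2 of the 4 higher transcripts. Over all transcripts it was larger at 1 day in 38.1%. On that scale the even levels of lower transcript 5 and higher transcript 3 at 21 days were not general among the 14. The count depends on the scale, and on the log2 scale rats at 0 counts weigh heavily. In CPM the SD was larger at 1 day in all lower transcripts except lower transcript 8 (2.51 CPM at 1 day and 2.98 CPM at 21 days). Among the higher transcripts it was larger at 1 day in higher transcripts 1 and 3 and smaller in higher transcripts 2 and 4.

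Which transcripts were separated depended on the scaling. With edgeR's TMM scaling 13 were separated, 11 of them among the 14, and with DESeq2's size factors 12, also with 11 of the 14. Upper-quartile scaling gave 13 with 9 of the 14, and it turned the lean from 4 higher and 10 lower to 7 higher and 6 lower. With CPM of the whole total, in which the 8 largest transcripts count, 7 were separated (3 higher and 4 lower), and of the 14 this kept lower transcripts 3 and 4 alone. These were the transcripts that stayed separated under all 5 scalings tried, and lower transcript 9 stayed under none of them.

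Each of the 12 rats also kept further transcripts out of the set on its own. Of the transcripts that could meet the rule, 10 to 40 were separated in the other 11 rats but not in that rat, with the fewest for EE1D rat A16 and the most for EE1D rat A12. The direction was not the same for all rats. For A24 the transcripts it kept out were 16 higher and 4 lower, and for IC1D rat A23 they were 6 higher and 18 lower. With A24 left out altogether and the rule applied anew, 34 transcripts were separated, 20 higher and 14 lower at 21 days. The lean toward lower levels thus did not hold without that rat. With all 12 rats, 10150 of the 17520 transcripts (57.9%) had a lower mean log2 level at 21 days, so a lean toward lower was not particular to the 14.

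**Figure D5:**
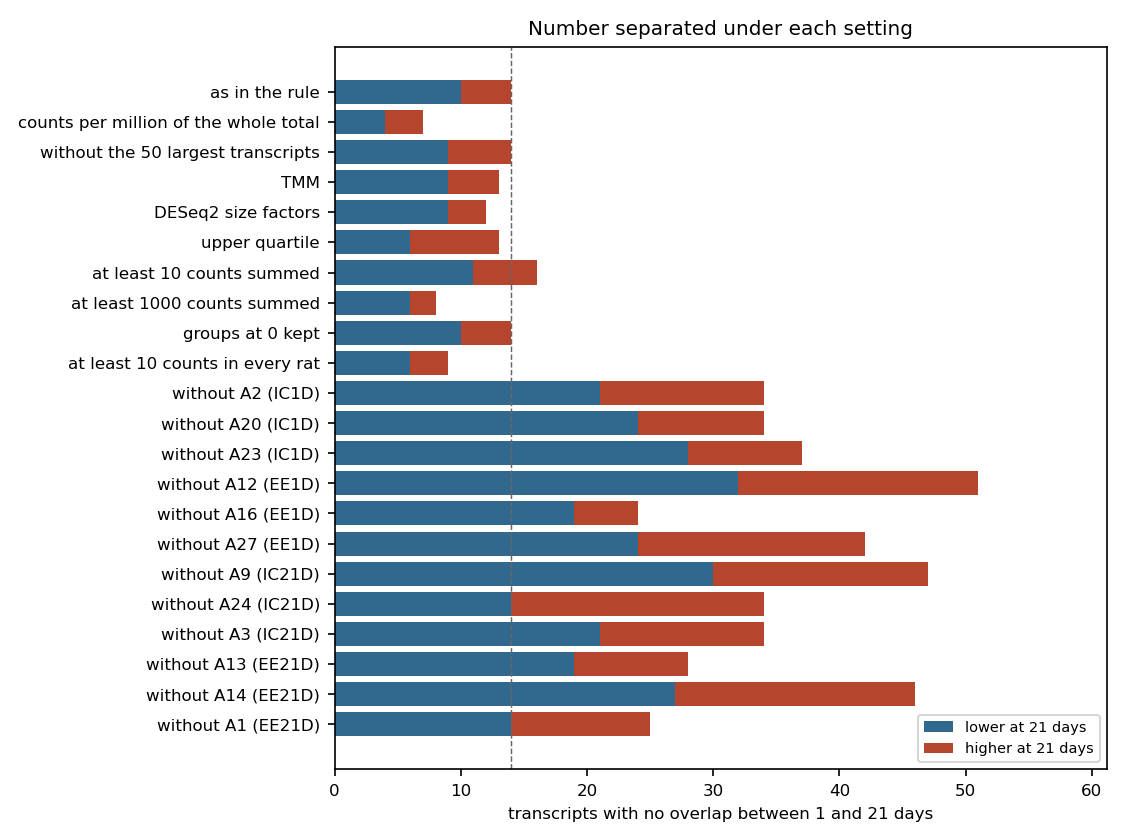
Number of transcripts with no overlap between 1 and 21 days (horizontal axis), lower (blue) and higher (red) at 21 days, under the rule, under other scalings and filters, and with each rat left out; the dashed line marks the 14 of the rule. Numbers with 1 rat fewer run from 24 (without A16) to 51 (without A12), all above the line because fewer rats have to be cleared, and without A24 the red part is the larger one.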

How the data were processed

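RNA from the NAcsh of 12 rats was analyzed, with 3 rats per group. The authors aligned reads to the Ensembl release 92 rat genome with HISAT2 2.1.0, quantified transcripts with StringTie 1.3.3.1, merged the output and requantified every library. What the authors deposited is, for each rat, a list of transcripts with whole-number counts that are not normalized, and how coverage was turned into counts is not given in the sources used here. Isoforms share reads, so the count of an isoform depends on how StringTie divided them.

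From these counts, CPM was computed over each total without the 8 largest transcripts, and log2 values used 0.5 CPM as an added constant. Housing (with abstinence length in the model) and the housing by abstinence interaction were tested with edgeR 4.0.16 in R 4.3.3 (TMM scaling, quasi-likelihood test, p-values adjusted after Benjamini-Hochberg, threshold 0.05) on all 28622 transcripts that had any count. A standard error is the absolute estimate over the root of its F statistic. DESeq2 1.42.0 was an alternative. Library measures were compared by exact permutation tests (SciPy 1.17.1). The membership rule and the edgeR fits were tested on simulated data. P-values measure the spread between these rats. Exact Poisson 95% intervals and the floor of 3 counts cover counting error only.

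The members, gene lists and tests were chosen with earlier results of these data known. The rule for naming took the 12 widest and 3 narrowest gaps in each direction, the 3 transcripts nearest outside, members of gene lists, and the smallest p-values for housing and interaction. Without gene names for the identifiers, gene and marker lists could not be applied, and 4 identifiers are printed. Sums over the transcripts of a gene and sequences were not analysed here.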

Additional observations from a re-analysis of the deposited data

Results flagged for a closer look

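Each set of 6 rats at the same abstinence length was searched for a sample far from the other 5. The measure was the ratio of its gap to the range (critical value 0.625 for 6 rats). Transcripts were on the scale of log2(CPM + 0.5), and library measures were untransformed. Such a sample was found in 6 of 36 sets of values. The usual rate of about 1 in 20 does not apply here, so the number is not compared with it. Most sets were levels of the separated transcripts, which were chosen by these same levels. The rule allows a rat far out on the side away from the gap, but not across it. The sets also share the same rats. In 5 of the 6 sets the far sample was IC21D rat A24. This rat had counts on 13936 transcripts against 20383 to 23306 in the other 21-day rats. It was lowest in lower transcript 1 (0 CPM against 9.63 to 13.6), lower transcript 6 (10.8 CPM against 19.5 to 23.2) and lower transcript 8 (17.8 CPM against 22.9 to 25.8), and highest in higher transcript 1 (176 CPM against 129 to 144). The other was IC1D rat A20, highest in lower transcript 2 with 19.4 CPM against 7.63 to 10.6 CPM in the other 1-day rats. What sets A24 apart was not tested.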

How the results depend on the processing

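The number of separated transcripts (14) was 7 with CPM of the whole total, 8 with a higher minimum of summed counts and 9 when each rat had to have 10 counts or more, and it lay within 1.5 times of 14 with the other scalings and filters. Leaving out 1 rat at a time gave 24 (without A16) to 51 (without A12). Calls for housing went from 0 to 15 with DESeq2 and stayed at 0 with each rat left out. Calls for the interaction went from 0 to 201 with DESeq2 and to 2 with edgeR's filterByExpr, and ranged from 0 to 19 with each rat left out, with the highest without IC21D rat A9. Of the 14, 0 were called for housing with any setting, and 0 to 1 for the interaction with each rat left out.

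The single estimates that changed sign were, with all rats, smaller than their standard errors. The housing estimate of lower transcript 8 became 0.0317 with library sizes without the 8 largest transcripts, and with upper-quartile scaling the interactions of lower transcript 4 and higher transcript 2 became -0.0537 and -0.048. With each rat left out, housing estimates ranged from -0.4647 to 0.1834 (lower transcript 3), -0.0773 to 0.049 (lower transcript 8) and -0.0065 to 0.2108 (lower transcript 9). Interactions ranged from -0.081 to 1.1447 (lower transcript 1), -0.2815 to 1.2784 (lower transcript 3), -0.6318 to 4.1121 (lower transcript 4), -0.0506 to 0.4829 (higher transcript 2) and -0.3728 to 0.1302 (higher transcript 4). The 21-day minus 1-day difference ranged from -2.7375 to 2.43089 percentage points for the share of the 8 largest transcripts and from -1024.6 to 849.4 for transcripts detected. The difference between abstinence lengths kept its sign in all 14 with every scaling and every rat left out. With a rat left out the rule fixes this sign in advance, and the other scalings use the same counts, so it is no check of the set. The difference of lower transcript 4 went from -1.95 to between -1.23 and -1.19 with the 4 scalings other than the one without the 50 largest transcripts. With CPM of the whole total the levels were lower, but the 0.5 CPM added before log2 was the same. Such a constant weighs more on a transcript at a low level, as this one was. Its part in the shift, and the causes of the other changes, were not tested.

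No paired analysis was possible because the labels give no replicate numbers that groups share. Sums over the transcripts of a gene were not run, since identifiers could not be matched to genes.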
